A study of Rattus norvegicus with 12 samples.

Results

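Mmadhc, Mob4, Nfkbia, Hid1, Nmb and Fundc2 are 6 rat genes whose mean signal differed in the same direction between offspring of TCDD-exposed and vehicle-exposed dams in both the pituitary and the hypothalamus. They were picked for those TCDD-minus-vehicle differences from 13337 named genes on the array, so that contrast is described for them without any test. Of the 6 genes, 4 were higher after TCDD (Mmadhc, Mob4, Nfkbia and Hid1) and 2 were lower (Nmb and Fundc2). Each gene was read by 1 probe, and each probe was detected on 6 of 6 arrays in both tissues. The series text gives the aim as finding genes with lasting expression changes linked to impaired sexual behaviour.

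Pregnant Wistar rats received TCDD in corn oil, or vehicle, by mouth on gestation day 15, and tissue was taken from their male pups on postnatal day 70. Each of 12 RNA samples (250 ng of total RNA) was measured on its own array of the Illumina RatRef-12 BeadChip type, which carries probes for rat transcripts. Both tissues had 3 arrays from the vehicle group and 3 from the TCDD group. The sources disagree on the dose, with 1 µg per kg in the series text and 1 mg per kg in the sample protocols, so no value is tied to a dose. The labels do not identify litters or dams.

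TCDD, a dioxin, binds the aryl hydrocarbon receptor, which pairs with ARNT and binds dioxin response elements in DNA. The 6 genes belong to unrelated processes. Mmadhc hands vitamin B12 (cobalamin) intermediates on to the cytosolic and mitochondrial enzymes that use them. Mob4 is a subunit of STRIPAK, a complex that joins the phosphatase PP2A to protein kinases. Nfkbia encodes IκBα, which holds the transcription factor NF-κB in the cytoplasm and is itself an NF-κB target. Hid1 is a Golgi-associated protein that, in mice and worms, is needed to form dense-core vesicles, the stores of peptide hormones. Nmb encodes neuromedin B, a bombesin-like peptide that in the rat pituitary restrains thyrotropin release. Fundc2 is a mitochondrial outer membrane protein related to the mitophagy receptor Fundc1.

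RefSeq promoter windows of assembly GRCr8, running from 250 bases before to 50 bases after the transcription start, were found for 5 of the 6 genes, and Hid1 is named only. The windows are shown for the 3 genes with an entry whose TCDD and vehicle arrays did not overlap in either tissue. They are written 5′ to 3′ along the gene's strand. The Mmadhc window lies at chr3:55135680-55135979 (minus strand), that of Nfkbia at chr6:78597023-78597322 (minus strand) and that of Fundc2 at chr18:152210-152509 (minus strand). Capitals mark CCAAT boxes in Mmadhc, the match to the NF-κB consensus in Nfkbia, and the dioxin response element core GCGTG, read on the other strand as CACGC, in Fundc2.
Mmadhc: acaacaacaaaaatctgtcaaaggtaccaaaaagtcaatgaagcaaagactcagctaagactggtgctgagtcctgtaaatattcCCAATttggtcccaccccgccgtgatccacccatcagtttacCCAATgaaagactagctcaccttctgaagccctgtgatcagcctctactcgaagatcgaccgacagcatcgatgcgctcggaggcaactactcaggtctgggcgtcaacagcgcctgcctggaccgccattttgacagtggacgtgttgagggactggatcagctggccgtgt
Nfkbia: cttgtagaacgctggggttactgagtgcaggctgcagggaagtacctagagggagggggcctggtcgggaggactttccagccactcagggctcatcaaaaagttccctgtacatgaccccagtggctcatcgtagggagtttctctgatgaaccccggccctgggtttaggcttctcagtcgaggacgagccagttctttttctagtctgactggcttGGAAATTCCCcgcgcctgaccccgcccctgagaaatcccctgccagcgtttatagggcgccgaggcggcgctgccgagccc
Fundc2: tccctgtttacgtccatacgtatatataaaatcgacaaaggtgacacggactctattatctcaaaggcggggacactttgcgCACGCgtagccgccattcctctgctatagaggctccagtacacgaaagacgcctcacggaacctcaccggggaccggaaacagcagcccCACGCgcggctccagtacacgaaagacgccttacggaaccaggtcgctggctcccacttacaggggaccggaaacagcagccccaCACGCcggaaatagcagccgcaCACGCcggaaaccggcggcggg
Motifs were searched on both strands of 33465 promoter windows. GCGTG occurred at 4 sites in Fundc2 and at 0 sites in Mmadhc, Mob4, Nfkbia and Nmb. It was held by 29.7% of all windows, with a mean of 0.461 sites per window. This motif contains CG, which the Fundc2 window held at 30 places against a median of 7 in all windows. The extended form TNGCGTG, which overlaps the core, was in 0 of the 5 windows and in 4.89% of all windows. The NF-κB consensus had 1 site in Nfkbia and was in 4.18% of all windows. The GC box GGGCGG had 4 sites in Mob4, 3 in Nmb and 1 in Nfkbia, and 33.1% of all windows held it (mean 0.682 sites). CCAAT had 2 sites in Mmadhc and was in 37.5% of all windows (mean 0.527 sites). No motif searched was shared by all 5 windows. These matches describe letters only.

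The arrays detected 9934 to 10371 of 22523 probes in the pituitary and 10852 to 11438 in the hypothalamus, with median signals of 108.1 to 123.6, and no pair of arrays held identical values. Of 12 pituitary cell markers with a probe, 10 were detected on 3 of 3 vehicle pituitary arrays (Cga on 2 and Trhr on 0). In vehicle hypothalamus 6 of the 12 were on 0 of 3 arrays, but Tshb (mean log2 intensity 10.69), Pomc, Drd2 and Trhr were on 3 of 3 and Prl and Lhb on 2 of 3. Of 10 hypothalamic peptide markers, 9 were detected on 3 of 3 vehicle hypothalamus arrays (Kiss1 on 2). In vehicle pituitary 7 of the 10 were on 0 of 3 arrays, and Agrp, Cartpt and Pomc were on 3 of 3. Across the 9467 features tested in both tissues, 58 (0.613%) had TCDD arrays wholly on the same side of the vehicle arrays in both tissues and 55 (0.581%) were apart in opposite ways. An interaction of treatment with tissue passed an adjusted p of 0.05 for 0 of 11910 features (limma).

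Mmadhc had the largest upward difference of the 6 genes in the pituitary. Its log2 intensity was 9.97, 9.86 and 9.73 on the 3 pituitary vehicle arrays and 10.56, 10.56 and 10.59 on the 3 TCDD arrays. All TCDD arrays lay above all vehicle arrays, and they were closely grouped. The means were 9.85 ± 0.12 and 10.57 ± 0.016 (SD, n = 3), a log2 difference of 0.72 (SE 0.092, 1.64-fold). In the hypothalamus the vehicle values were 10.24, 9.51 and 9.68, and the TCDD values were 10.43, 10.40 and 10.45. The groups again did not overlap, but vehicle replicate 1 stood well above the other vehicle arrays and close to the TCDD arrays. The means were 9.81 ± 0.38 and 10.43 ± 0.024, a difference of 0.62 (SE 0.18, 1.53-fold), and between 0.47 and 0.83 when each array was left out in turn.

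Mob4 differed most in the hypothalamus. The hypothalamus vehicle arrays read 9.85, 9.82 and 9.86, and the TCDD arrays read 10.91, 10.76 and 10.75. Both groups were tight and far apart, with means of 9.84 ± 0.021 and 10.81 ± 0.086 and a difference of 0.96 (SE 0.10, 1.95-fold). In the pituitary the vehicle arrays read 9.34, 9.39 and 9.32 and the TCDD arrays 9.33, 10.01 and 10.08. TCDD replicate 1 was at the vehicle level and the other TCDD arrays were higher, so the groups overlapped. The means were 9.35 ± 0.034 and 9.81 ± 0.41, a difference of 0.45 (SE 0.19, 1.37-fold) that became 0.69 without TCDD replicate 1 and 0.32 without TCDD replicate 3.

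Nfkbia values in the pituitary were 10.52, 10.92 and 11.04 with vehicle and 11.20, 11.21 and 11.33 with TCDD. The TCDD arrays were all higher, and vehicle replicate 1 was low against the other vehicle arrays. The means were 10.83 ± 0.27 and 11.25 ± 0.072, a difference of 0.42 (SE 0.14, 1.34-fold) that was 0.27 without vehicle replicate 1. In the hypothalamus the values were 10.19, 10.19 and 10.39 with vehicle and 10.65, 10.69 and 10.84 with TCDD. The groups did not overlap, with replicate 3 the highest of each group. The means were 10.26 ± 0.12 and 10.73 ± 0.10, a difference of 0.47 (SE 0.11, 1.39-fold).

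Hid1 values in the pituitary were 9.25, 9.34 and 9.10 with vehicle and 9.61, 9.64 and 9.56 with TCDD. All TCDD arrays were higher, and the means of 9.23 ± 0.12 and 9.61 ± 0.040 differed by 0.38 (SE 0.094, 1.30-fold). In the hypothalamus the values were 9.11, 8.96 and 8.87 with vehicle and 9.58, 9.26 and 9.39 with TCDD. The groups did not overlap, although TCDD replicate 2 came near the highest vehicle array. The means were 8.98 ± 0.12 and 9.41 ± 0.16, a difference of 0.43 (SE 0.13, 1.35-fold).

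Nmb had the largest downward difference of the 6 genes in either tissue and the widest spread. Pituitary values were 11.30, 10.60 and 11.47 with vehicle and 10.97, 9.79 and 9.76 with TCDD. TCDD replicate 1 lay above vehicle replicate 2, so the groups overlapped, and the other TCDD arrays were below all vehicle arrays. The means were 11.12 ± 0.46 and 10.17 ± 0.69, a difference of -0.95 (SE 0.34, 1.93-fold lower) that was -1.35 without TCDD replicate 1. In the hypothalamus, where the probe was dimmer, values were 8.28, 7.58 and 7.94 with vehicle and 7.20, 7.11 and 7.52 with TCDD. The groups did not overlap, but TCDD replicate 3 was almost level with vehicle replicate 2. The means were 7.93 ± 0.35 and 7.28 ± 0.22, a difference of -0.65 (SE 0.19, 1.57-fold lower) that was -0.36 in the authors' normalized table.

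Fundc2 values in the pituitary were 9.54, 9.50 and 9.59 with vehicle and 8.96, 9.35 and 9.19 with TCDD. The vehicle arrays were tight and the TCDD arrays all lower and more scattered. The means were 9.54 ± 0.0465 and 9.16 ± 0.20, a difference of -0.38 (SE 0.11, 1.30-fold lower). In the hypothalamus the values were 8.83, 8.37 and 8.82 with vehicle and 8.11, 7.98 and 8.10 with TCDD. Vehicle replicate 2 was low for its group but still above every TCDD array. The means were 8.67 ± 0.26 and 8.06 ± 0.072, a difference of -0.61 (SE 0.14, 1.53-fold lower).

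**Figure D1:**
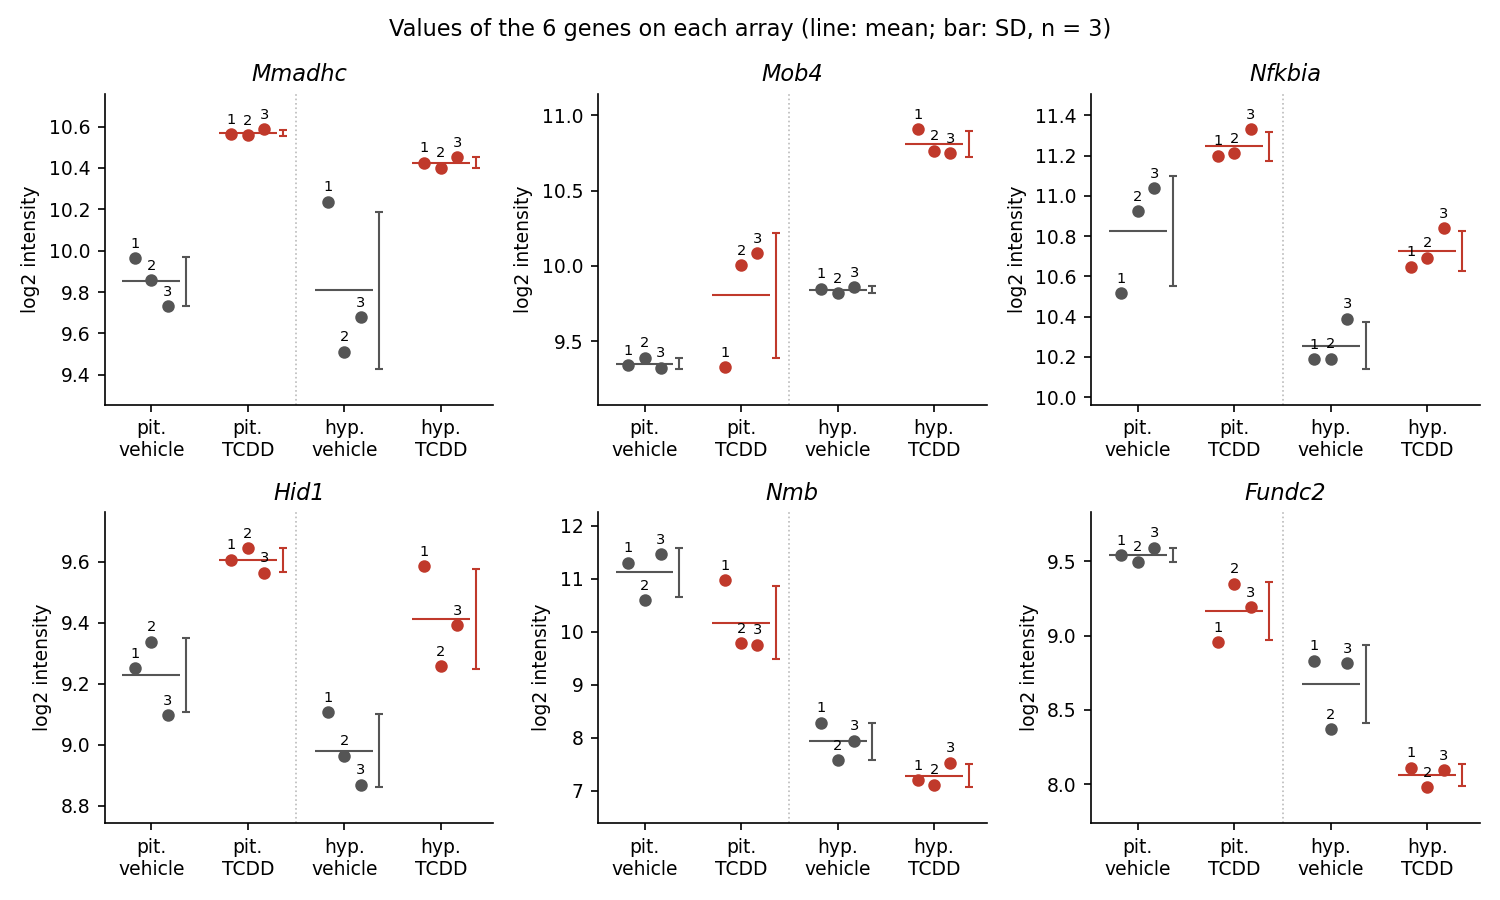
Log2 intensity of the 6 genes on each of the 12 arrays, by tissue and maternal treatment, with each array's replicate number above its point, the group mean as a line and the SD (n = 3) as a bar at the right of the group. The vertical axes differ between genes, do not start at 0, and each tissue was normalized on its own. Mob4 and Nmb overlap between pituitary groups, where TCDD replicate 1 lies among the vehicle arrays. For Nmb it lies above vehicle replicate 2 only.

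TCDD arrays lay wholly on one side of the vehicle arrays for 4 of the 6 genes in the pituitary, where 11.1% of all 10119 features did so, and for 6 of 6 in the hypothalamus, where 10.9% of 11095 did. The share was 5.38% upward and 5.7% downward in the pituitary, and 5.19% upward and 5.7% downward in the hypothalamus. Since the genes were picked on these differences, nothing follows from those counts. The counts were also 4 and 6 in the deposited signals before normalization. The TCDD array on which Mob4 and Nmb overlapped in the pituitary was replicate 1 in both cases. Without it all 6 genes were apart there, which its removal alone ensures, because no other TCDD array overlapped. Fewer arrays also make separation easier to meet. Features apart the same way in both tissues rose from 58 to 108 without that array. For Nmb the overlap was with vehicle replicate 2 only. The differences of the 4 higher genes ranked between 17 and 129 among the 5090 higher features in the pituitary and between 18 and 144 among 5619 in the hypothalamus. Nmb ranked 10 and Fundc2 162 among 5029 lower features in the pituitary, and they ranked 81 and 97 among 5476 in the hypothalamus.

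Some titles carry the same number in both tissues. Among vehicle arrays number 4 was pituitary replicate 2 and hypothalamus replicate 3, and among TCDD arrays number 2 was pituitary replicate 1 and hypothalamus replicate 2. The labels do not say whether these came from the same animals. Mob4 was at the vehicle level on the first of the TCDD arrays (9.33) and above it on the second (10.76).

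Marker genes of cell types and regions, those of the tissue itself included, were read from the same fit. Of these, 0 of 63 in the pituitary and 0 of 79 in the hypothalamus passed the adjusted p (limma, lowest 0.0541 for Pde10a and 0.883). An unadjusted p under 0.05 was reached by 9 of 63 and 9 of 79. Both shares were larger than those of all features, 6.07% in the pituitary and 5.35% in the hypothalamus. Some lists had all or most members on the same side. In the hypothalamus all 6 measured thalamus markers were higher with TCDD (median log2 difference 0.70, with Tcf7l2 at 1.01 and Prkcd at 1.53), and the list's mean level was 7.15 to 7.60 on vehicle arrays and 7.61 to 8.76 on TCDD arrays. The 6 striatum, septum and cortex markers were all lower there (median -0.67), at 9.13 to 11.16 against 9.10 to 9.26, with overlap. Red blood cell genes were higher for 5 of 6, at 9.268 to 9.925 against 9.933 to 10.21. Meninges and fibroblast markers were lower for 9 of 10, at 8.82 to 9.40 against 8.27 to 9.23, with overlap. In the pituitary 8 of 10 meninges and fibroblast markers were lower too, at 9.21 to 9.35 against 8.96 to 9.09. The 6 striatum, septum and cortex markers were all higher, at 8.85 to 8.95 against 9.26 to 9.38, led by Pde10a (1.42), and the 4 somatotrope and lactotrope markers were all lower, at 10.69 to 10.75 against 10.45 to 10.63. Of 14 marker lists, 3 in the pituitary and 2 in the hypothalamus had levels that did not overlap between groups. Among single features, an unlike unit, 11.1% and 10.9% did not overlap. The hypothalamus gaps were narrow, from 7.595 to 7.613 for thalamus markers and from 9.925 to 9.933 for red blood cell genes. The part of the marker lists in the differences of the 6 genes was not tested. In whole tissue, fewer cells of a type and less RNA per cell cannot be told apart.

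The features apart the same way in both tissues were ordered by the smaller of their absolute differences. Mmadhc, Nfkbia and Hid1 held ranks 1, 2 and 3 of 33 higher features (0.349% of those tested), and Fundc2 held rank 2 of 25 lower ones (0.264%). They were chosen for this. The next named genes were Fcgr3a, an Fc receptor of immune cells (0.42 in the pituitary and 0.35 in the hypothalamus), Bhlhe40, a repressor of the circadian clock (0.34 and 0.30), and Bcat1, a branched-chain amino acid transaminase (0.29 and 0.34). Unc5c, a netrin receptor (0.26 and 0.32), and Srp19, a subunit of the signal recognition particle (0.25 and 0.28), followed. Arc, an activity-induced synaptic gene, headed the lower features at -0.74 and -0.96. After Fundc2 came Brms1l of the Sin3 histone deacetylase complex (-0.27 and -0.37) and the immediate early gene Fos (-1.42 and -0.27). Reln, which encodes reelin (-0.26 and -0.31), and Tenm3, a teneurin adhesion protein (-0.26 and -0.34), were next. The median of the smaller difference was 0.22 for the higher features, 0.18 for the lower and 0.17 for those apart in opposite ways.

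**Figure D2:**
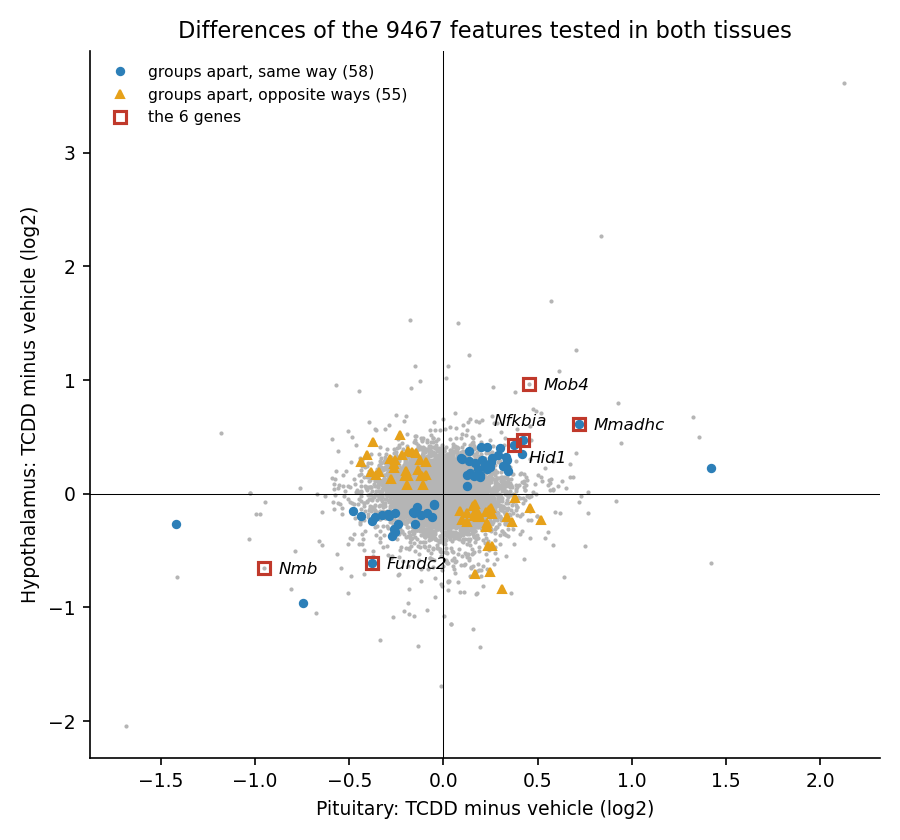
TCDD-minus-vehicle log2 difference in the pituitary (horizontal) against that of the hypothalamus (vertical) for 9467 features, with grey points for all features, blue circles for the 58 apart the same way in both tissues, orange triangles for the 55 apart in opposite ways and red squares for the 6 genes. The squares of Mmadhc, Nfkbia, Hid1 and Fundc2 enclose a blue circle, and those of Mob4 and Nmb, whose groups overlap in the pituitary, enclose a grey point.

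**Figure D3:**
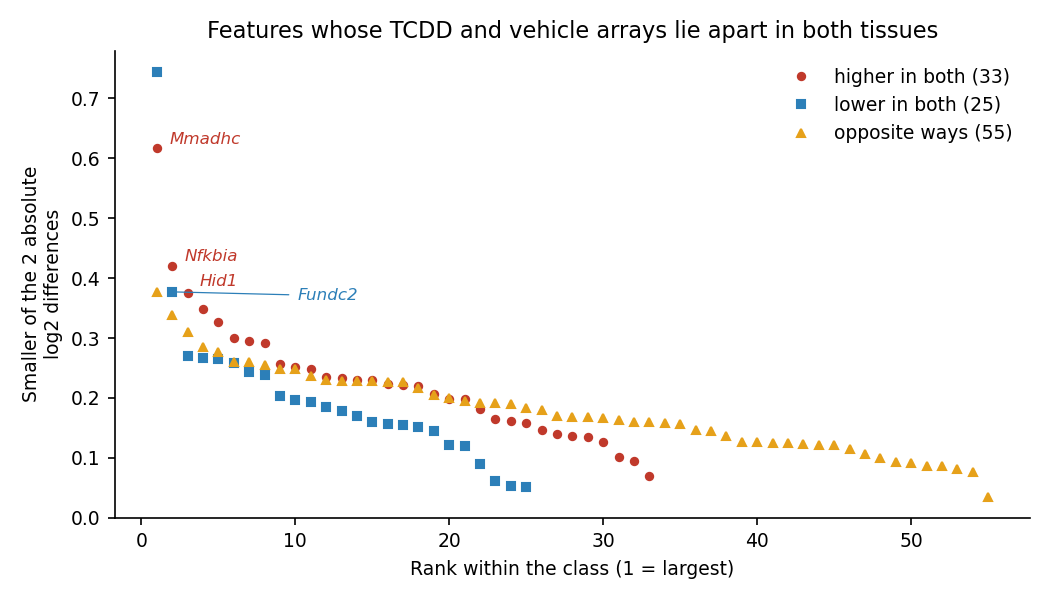
Smaller of the absolute log2 differences of the pituitary and the hypothalamus, against rank, for features higher in both (33), lower in both (25) or apart in opposite ways (55). Mmadhc, Nfkbia, Hid1 and Fundc2 lie near the left of their classes, and only Arc lies above Fundc2 among the lower features.

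The contrast between the vehicle groups of the tissues was not the one used to choose the genes. The same vehicle arrays did enter that choice, so the test is not fully independent of it. Of the 6 genes, 4 differed between vehicle pituitary and vehicle hypothalamus in the joint 12-array limma fit, against 64.3% of 11910 features, a share near the background. The pituitary was the higher tissue for all 4 (and for 35.7% of all features, with 28.6% in the other direction). Nmb was 11.23 ± 0.48 in the pituitary and 7.84 ± 0.35 in the hypothalamus, a log2 difference of 3.39 (SE 0.32, 10.5-fold, 95% interval 2.70 to 4.08, limma adjusted p = 1.14e-06). Fundc2 was 9.64 ± 0.046 and 8.57 ± 0.26, a difference of 1.07 (SE 0.13, 95% interval 0.77 to 1.36, limma adjusted p = 1.67e-05). Both genes that were lower with TCDD were thus the most pituitary-weighted of the 6. Nfkbia was 10.92 ± 0.28 and 10.18 ± 0.12, a difference of 0.74 (SE 0.13, 95% interval 0.45 to 1.02, limma adjusted p = 0.000318). Hid1 was 9.33 ± 0.13 and 8.89 ± 0.12, a difference of 0.44 (SE 0.11, 95% interval 0.21 to 0.68, limma adjusted p = 0.00312). The median absolute difference of all features was 0.49, so Hid1 differed by less than the median feature.

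Mob4 and Mmadhc did not pass. Mob4 was lower in the pituitary, 9.45 ± 0.034 against 9.76 ± 0.022, with no overlap of arrays (difference -0.30, 95% interval -0.64 to 0.032, limma adjusted p = 0.103). Mmadhc was 9.94 ± 0.11 and 9.72 ± 0.39, with overlap (difference 0.21, 95% interval -0.12 to 0.55, limma adjusted p = 0.243). Scaling bears on this comparison, since the median difference of all features was 0.086 with quantile normalization and -0.043 with median scaling, and 55.5% and 44.5% of the features that passed were higher in the pituitary. Relative to those medians, Hid1 was 0.36 higher with quantile normalization and 0.29 higher with median scaling, where it no longer passed (adjusted p = 0.144). Mob4 was -0.39 and -0.47 on the same footing and passed with median scaling (adjusted p = 0.0193) and cyclic loess (adjusted p = 0.0287). It also passed without pituitary TCDD replicate 1 (difference -0.30, adjusted p = 0.00861), and Mmadhc passed without hypothalamus vehicle replicate 1 (difference 0.43, adjusted p = 0.00248).

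**Figure D4:**
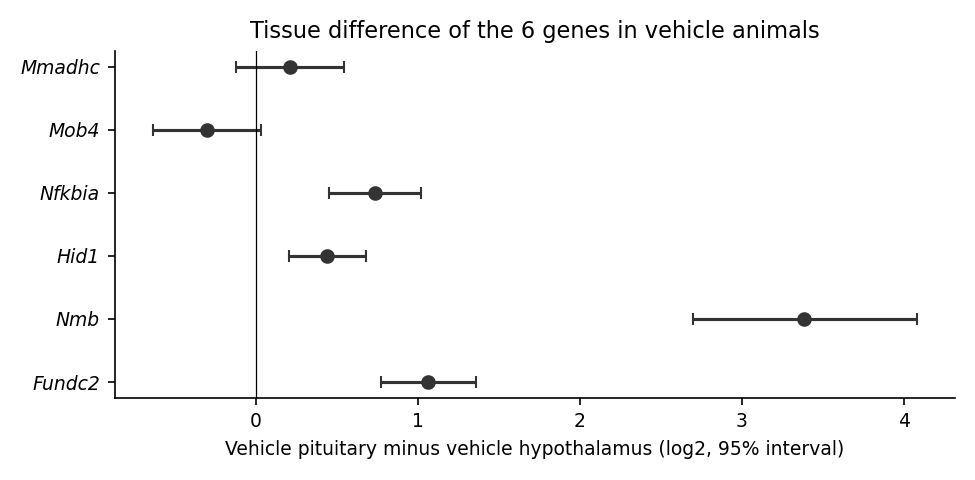
Difference of log2 intensity between vehicle pituitary and vehicle hypothalamus for the 6 genes (points) with 95% intervals from the limma fit over 12 arrays. The intervals of Nmb, Fundc2, Nfkbia and Hid1 lie above 0, and those of Mob4 and Mmadhc include 0.

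On the scale common to all 12 arrays, the order of the groups differed between the genes. Nmb was highest in pituitary vehicle (11.23), next in pituitary TCDD (10.26), lower in hypothalamus vehicle (7.84) and lowest in hypothalamus TCDD (7.19), with only the pituitary groups overlapping. Fundc2 had the same order at 9.64, 9.26, 8.57 and 7.97, with no overlap between neighbours. For Nfkbia the order was pituitary TCDD (11.36), pituitary vehicle (10.92), hypothalamus TCDD (10.65) and hypothalamus vehicle (10.18), and Hid1 had that order too at 9.70, 9.33, 9.32 and 8.89. In both genes the arrays of the middle groups overlapped. Mmadhc was highest in pituitary TCDD (10.65) and hypothalamus TCDD (10.35), and the vehicle groups (9.94 and 9.72) overlapped. Mob4 was highest in hypothalamus TCDD (10.73), followed by pituitary TCDD (9.89) and hypothalamus vehicle (9.76), which overlapped, and pituitary vehicle (9.45).

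Once group means were taken out, the 6 genes did not vary together as a set from array to array when the tissues were pooled. Over 15 pairs of genes and 12 arrays, Pearson r had a median of 0.11 and ran from -0.77 (Mob4 and Nmb) to 0.54 (Mob4 and Fundc2), and 9 pairs were above 0. The Mob4 and Nmb value came from the pituitary (-0.87), where TCDD replicate 1 was low in one and high in the other, and was -0.07 in the hypothalamus. Other pairs also differed between the tissues. In the hypothalamus r was 0.84 for Mmadhc with Nmb, 0.81 for Nmb with Fundc2 and 0.69 for Mmadhc with Fundc2. The pituitary values of these pairs were -0.17, -0.62 and -0.14. Nfkbia was below 0 in the hypothalamus with Hid1 (-0.53), Mob4 (-0.34) and Mmadhc (-0.20). In the pituitary these pairs were at -0.39, 0.17 and -0.86, so only the pair with Mob4 changed sign. Mob4 with Fundc2 was at 0.83 in the pituitary and 0.34 in the hypothalamus. Each value for a single tissue rests on 6 arrays with group means removed and is imprecise. The differences in r between the tissues were not tested.

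Among 7036 named genes tested in both tissues, those most like each gene were found by Pearson r over 12 arrays after removal of the tissue mean, which keeps the treatment difference. For Mmadhc they were Adsl of purine synthesis (0.90), Hid1 (0.89) and Srp19 (0.89), and for Hid1 they were Adsl (0.90), Mmadhc (0.89) and the pseudokinase gene Stradb (0.83). For Mob4 they were Rgs7, a regulator of G protein signalling (0.89), Unc5c (0.89) and the methyltransferase gene Hemk1 (0.89). For Nfkbia they were Unc5c (0.95), the RNA methylation reader Ythdc1 (0.89) and the complex I assembly factor Timmdc1 (0.86). For Nmb they were Olfm3, a secreted olfactomedin (0.95), the dopamine receptor gene Drd2 (0.93) and Ccdc126 (0.90), and for Fundc2 they were the splicing factor gene Hnrnpf (0.89), Cdip1 (0.88) and the kinase gene Lrrk1 (0.86). With group means removed as well, r was 0.93 for Nmb with Olfm3 and 0.84 with Drd2, and 0.91 for Mob4 with Rgs7, while it was 0.49 for Mmadhc with Adsl. All arrays of a tissue share the normalization, and these values are descriptions.

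Genes that act with the 6 were read from the fit over all features. Of 9 lists, 132 genes other than the 6 were tested in the pituitary, and 137 were tested in the hypothalamus. Of them, 0 passed an adjusted p of 0.05 in either tissue (limma), where 0% of all pituitary features and 0.00901% of all hypothalamus features passed. At an unadjusted p under 0.05 there were 11 in the pituitary (8 higher and 3 lower, 8.33% against 6.07% of all features, of which 2.75% higher and 3.32% lower) and 7 in the hypothalamus (1 higher and 6 lower, 5.11% against 5.35%, of which 2.69% higher and 2.66% lower). The median difference over these genes was 0.028 in the pituitary and 0.0055 in the hypothalamus, beside 0.00052 and 0.0027 for all features. With pituitary TCDD replicate 2 left out, 1 gene passed, Cyp1b1 (difference 1.80, limma adjusted p = 0.00386).

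Of the cobalamin genes around Mmadhc, 7 of 13 were higher and 6 lower in the pituitary (median 0.040), and 4 were higher and 9 lower in the hypothalamus (median -0.023). In the pituitary Amn, a part of the intestinal and renal cobalamin receptor, was detected on 3 of 3 vehicle arrays and 0 of 3 TCDD arrays, where it has only a bound (at least 1.13-fold lower, limma adjusted p = 0.773). Mcee, the methylmalonyl-CoA epimerase, and Mmaa, which protects methylmalonyl-CoA mutase, were each at 0.20 (adjusted p = 0.840 and 0.865). In the hypothalamus Pccb, a propionyl-CoA carboxylase subunit, was at -0.25, and Thap11 and Zfp143, transcription factors of the cobalamin gene Mmachc, were at -0.23 and -0.21 (limma adjusted p = 0.883 for each). Of the STRIPAK and MOB genes around Mob4, 5 of 11 were higher in the pituitary (median -0.055) and 6 of 15 in the hypothalamus (median -0.045). The kinase gene Stk3 was at 0.15 in the pituitary (adjusted p = 0.867) and -0.14 in the hypothalamus (adjusted p = 0.897), and Cttnbp2nl was at 0.13 and -0.15 (adjusted p = 0.900 and 0.883). The PP2A catalytic subunit genes Ppp2ca in the pituitary (-0.10, adjusted p = 0.911) and Ppp2cb in the hypothalamus (-0.22, adjusted p = 0.883) did not pass either.

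Of the NF-κB regulators around Nfkbia, 8 of 14 were higher in the pituitary (median 0.0038) and 6 of 14 in the hypothalamus (median -0.081). The adaptor gene Myd88 was at 0.29 in the pituitary (limma adjusted p = 0.848), and the sister inhibitor gene Nfkbib was at -0.30 in the hypothalamus (adjusted p = 0.883), opposite in sign to Nfkbia. Chuk, a kinase that marks IκB proteins for destruction, was at -0.21 there (adjusted p = 0.883). Tnip1, which restrains the pathway, was at 0.13 in the pituitary (adjusted p = 0.898) and -0.21 in the hypothalamus (adjusted p = 0.883). Of other NF-κB targets, 11 of 18 were higher in the pituitary (median 0.028) and 8 of 16 in the hypothalamus (median -0.032). The chemokine gene Cxcl10 was at 0.49 (adjusted p = 0.817) and 0.73 (adjusted p = 0.883), while Il1b was at -0.13 (adjusted p = 0.918) and -0.29 (adjusted p = 0.883). Ptgs2, the inducible cyclooxygenase, was at 0.15 in the pituitary (adjusted p = 0.967) and -0.65 in the hypothalamus (adjusted p = 0.883). Junb was at -0.45 in the pituitary (adjusted p = 0.911) and -0.44 in the hypothalamus (adjusted p = 0.883).

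Nfkbia also responds to glucocorticoids, and of other such genes 8 of 10 were higher in the pituitary (median 0.12) and 5 of 10 in the hypothalamus (median 0.047). Ddit4, an inhibitor of mTORC1, was apart upward in both tissues, at 0.31 (limma adjusted p = 0.817) and 0.25 (adjusted p = 0.883). The clock gene Per1 was at 0.67 (adjusted p = 0.833) and the phosphatase gene Dusp1 at -0.63 (adjusted p = 0.773) in the pituitary. In the hypothalamus the metallothionein gene Mt1 was at -0.47 and Fkbp5, a chaperone of the glucocorticoid receptor, at -0.40 (adjusted p = 0.883 for both).

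Of the dense-core vesicle genes around Hid1, 15 of 25 were higher in the pituitary (median 0.034) and 16 of 25 in the hypothalamus (median 0.037). Arfip2, a Golgi protein that shapes vesicle carriers, was at 0.32 in the pituitary (limma adjusted p = 0.696), and Eipr1, a partner of the EARP complex in vesicle formation, was at 0.22 (adjusted p = 0.848). The prohormone convertase gene Pcsk2 was at -0.49 in the pituitary (adjusted p = 0.773) and 0.28 in the hypothalamus (adjusted p = 0.883), and the difference between these effects did not pass (interaction -0.76, limma adjusted p = 0.717). The granin genes Scg5 and Scg2 were at 0.30 and 0.41 in the hypothalamus (adjusted p = 0.883 for both).

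The list around Nmb held bombesin-like peptides and their receptors along with other peptides, receptors and signalling genes. Of its tested genes, 7 of 8 were higher in the pituitary (median 0.19) and 5 of 11 in the hypothalamus (median -0.054). Grp, the bombesin-like peptide gene among the 8, was the lower one at -0.029 (limma adjusted p = 0.9825), and no bombesin receptor gene was tested in the pituitary. In the pituitary Vip, the vasoactive intestinal peptide gene, was at 0.55 (limma adjusted p = 0.900), Nmu, the neuromedin U gene, at 0.27 (adjusted p = 0.848), and the phospholipase gene Plcb1 at 0.27 (adjusted p = 0.773). In the hypothalamus Nmbr, the receptor of neuromedin B, was at 0.41 (adjusted p = 0.913) but ranged from -0.0093 to 0.84 as arrays were left out, and the G protein gene Gna11 was at -0.34 and Vipr2 at 0.28 (adjusted p = 0.883 for both). Tshb, the thyrotropin subunit gene of the cells known to make neuromedin B, was 14.87 ± 0.032 with vehicle and 14.77 ± 0.15 with TCDD in the pituitary (difference -0.10, limma adjusted p = 0.929). In the hypothalamus Tshb was 10.69 ± 1.40 and 10.66 ± 2.32, so its level varied widely between arrays of 1 group, and its part in the hypothalamus values of Nmb was not tested.

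Of the mitochondrial outer membrane and mitophagy genes around Fundc2, 13 of 30 were higher in the pituitary (median -0.022) and 19 of 30 in the hypothalamus (median 0.012). The autophagy kinase gene Ulk1 was at 0.23 and the fission gene Dnm1l at 0.18 in the pituitary (limma adjusted p = 0.817 and 0.863), with the mitochondrial deubiquitinase gene Usp30 at -0.14 (adjusted p = 0.897). In the hypothalamus the import receptor gene Tomm20 was at -0.22 and the fusion genes Mfn2 and Mfn1 at 0.17 and 0.21 (adjusted p = 0.883 for each). Fundc1, the closest relative of Fundc2 on the list, was at -0.062 in the pituitary (adjusted p = 0.972) and 0.17 in the hypothalamus (adjusted p = 0.915). The aryl hydrocarbon receptor list held the receptor gene Ahr as well as targets, and 11 of its genes had a probe. Of those tested, 4 of 5 were higher in the pituitary (median 0.33) and 2 of 4 in the hypothalamus (median 0.040). Cyp1b1, a dioxin-induced oxygenase, was at 1.35 (limma adjusted p = 0.549), the quinone reductase gene Nqo1 at 0.43 and the heme oxygenase gene Hmox1 at 0.33 (adjusted p = 0.640 for both) in the pituitary. In the hypothalamus Cyp1b1 was at 0.50 (adjusted p = 0.883), Hmox1 at 0.14 (adjusted p = 0.916) and Ahr at -0.11 (adjusted p = 0.946).

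**Figure D5:**
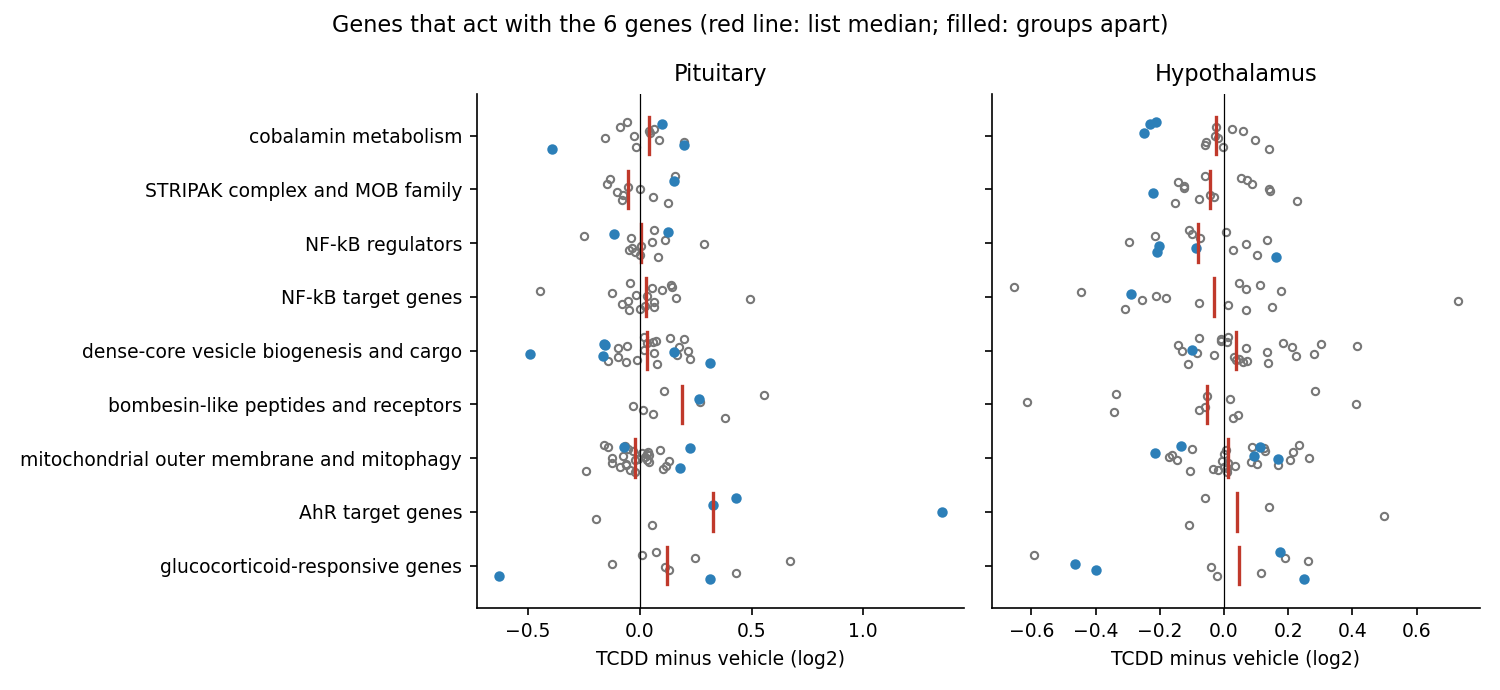
TCDD-minus-vehicle log2 difference of each tested gene of the 9 lists, other than the 6 genes, in the pituitary (left) and the hypothalamus (right), with filled points for genes whose groups do not overlap and a red line at each list's median. The horizontal scales differ between the panels, and the largest pituitary value is Cyp1b1 at 1.35. Amn is drawn at its measured pituitary value, -0.39, although it was not detected on the TCDD arrays.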

How the data were processed

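Probe signal intensity was deposited without normalization between arrays, with a detection p-value per probe, per the file headers. A table of intensity values normalized by the authors for each tissue, by a method not stated in the sources used here, served only as an alternative; its scale was linear and kept the rank order of the signals, its medians were 171.3 to 171.4 or 169.2 to 169.3, and its background step is unknown.

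With limma 3.58.1 in R 4.3.3, each tissue's 6 arrays were corrected by nec (background from the detection p-values, offset 16), quantile normalized and log2 transformed. Features detected (p under 0.05) on at least 3 arrays were tested by lmFit and eBayes, two-sided, with Benjamini-Hochberg adjustment at 0.05, and a gene was represented by its brightest probe. Vehicle tissues and the interaction were compared in a fit of all 12 arrays. The fit was tested on simulated data. Of 22523 probes, 13793 carried 1 gene symbol, 0 several and 8730 none; 13752 matched the RefSeq table of GRCr8.

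The 6 genes and all gene lists were chosen with earlier results of these data known. Named besides the 6 were up to 3 genes of smallest p per list and tissue and the 3 most alike per gene. The 5 largest apart each way in both tissues were named too. A few were chosen after their values were seen (Fundc1, Tshb, Grp and markers). The number of arrays limits precision. Replicate numbers come from the sample descriptions, and p-values measure only the spread between arrays, which may be technical.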

Additional observations from a re-analysis of the deposited data

Results flagged for a closer look

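Thap11, a transcription factor gene of the cobalamin list, was the list gene whose TCDD arrays lay wholly above the vehicle arrays in the pituitary (log2 difference 0.10) and wholly below them in the hypothalamus (-0.23). The difference between these effects did not pass in the interaction fit (limma adjusted p = 0.746). Among all 9467 features tested in both tissues, 55 (0.581%) were apart in opposite ways. With 132 list genes tested in the pituitary and 137 in the hypothalamus, 1 such gene is near that share.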

How the results depend on the processing

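The TCDD-minus-vehicle differences of the 6 genes were recomputed 192 times. In 48 of these (filters, single probes and the replicate block) the setting could not alter the value. The other 144 had the reported sign, which the choice of the genes fixes in part and which is no sign of stability, and 142 lay within 1 SD. The 2 beyond came from the authors' table, with 0.88 for Mob4 and -0.42 for Fundc2 in the hypothalamus. That table also gave -0.36 for Nmb there. Without pituitary TCDD replicate 1 the Mob4 difference in the pituitary was 0.69, and without pituitary vehicle replicate 1 that of Nfkbia was 0.27. Left-out arrays gave 4 to 6 genes apart in the pituitary (6 without TCDD replicate 1). Features past the adjusted p in the hypothalamus, 1 as reported, numbered 2 with no background correction, the authors' table, detection on all arrays, no filter or an offset of 50, 3 with trend and robust eBayes, 0 with all 12 arrays normalized together, and 1 to 3 with an array left out. In the pituitary, 0 as reported, there were 2 with no background correction or the authors' table, 1 with detection on all arrays or an offset of 50, 3 with trend and robust eBayes, and 0 to 3 with an array left out; at an unadjusted p under 0.05 there were 614. List genes past the adjusted p in the pituitary numbered 0 to 1 with an array left out. Features apart the same way numbered 58, then 26 with median scaling, 130 with no filter and 93 to 125 with an array left out, and those apart in opposite ways 55, then 117 with no filter and 81 to 178. Fewer arrays make separation easier to meet, and the causes of the other shifts were not tested. With median scaling 22.8% of the features at an unadjusted p under 0.05 were higher in the pituitary (45.3% as reported) and 73.1% in the hypothalamus (50.3%). Vehicle and TCDD arrays with the same replicate number in the descriptions deviated from their group means with r of 0.07 to 0.19 in the pituitary and 0.10 to 0.26 in the hypothalamus. Unlike replicate numbers gave -0.13 to 0.043 and -0.38 to 0.25. Whether like numbers are pairs cannot be told from these values, and the main fit did not take them as pairs. The titles carry other numbers, of which 4 and 5 occur in both pituitary groups (r of 0.19 and 0.07) and 2 and 3 in both hypothalamus groups (0.25 and 0.14), and they were not used as a block. With the replicate block 0 pituitary and 1 hypothalamus features passed and 4 of the 6 genes differed between vehicle tissues. The authors' table was not run for vehicle tissues, since it was normalized for each tissue separately. With 3 arrays a group, only differences well above the spread between arrays could pass.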
